A study of Mus musculus with 222 samples.

Results

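Tumors of MMTV-ErbB2 mice were compared by their content of fibrillar collagen transcripts. A collagen score was the mean log2 signal of Col1a1, Col1a2 and Col3a1, which encode the chains of type I and type III collagen, each read from the probe set with the highest mean. All tumor arrays with an interquartile range of 2.8 or more and a name not ending in R were ranked by this score. Of 222 arrays in the series, 188 met these conditions, and the 1 in 4 with the highest scores gave 47 collagen-rich tumors and the 1 in 4 with the lowest 47 collagen-poor tumors. The 94 tumors between them are called middle tumors, and the 24 tumors with a smaller interquartile range are called left-out tumors. The groups were thus chosen by the measured signal of 3 probe sets, so the difference of these genes between the groups is a description without a test, and every p-value given for another gene is for its association with the score. The score itself was tested only against background and mouse, which the choice of the groups did not use.

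Each array held 1 spontaneous tumor, measured on an Affymetrix mouse gene 1.0 ST array. Every tumor came from a mouse with the MMTV-ErbB2 transgene, in which a mammary tumor virus promoter drives the ErbB2 receptor mainly in mammary epithelium. The mice were FVB, F1 (C57BL/6 crossed with FVB/N) or F1BX (the backcross of F1 to FVB/N), no treatment is named in the labels, and ages were not given in the labels used here. The 188 tumors comprised 140 from F1BX, 22 from F1 and 26 from FVB mice. The 8 normal glands, from MMTV-ErbB2 and wild type mice, entered no test. All levels are log2 signal after RMA, the normalization the authors applied, and 1 unit of difference is a 2-fold change. Arrays have no counting depth, and their number limits the precision. The interquartile range did not set the collagen-rich arrays apart from the collagen-poor ones, with medians of 3.21 and 3.22. The median signal of an array ranged from 7.12 to 7.27 in collagen-rich and from 7.06 to 7.27 in collagen-poor tumors. The medians of these values were 7.20 and 7.17, a difference that was not tested.

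Type I and type III collagens assemble into the fibrils that give connective tissue its strength, and fibroblasts are their main source. The chains are hydroxylated and folded in the cell, trimmed outside it, and crosslinked by lysyl oxidases. Small leucine-rich proteoglycans and fibronectin organize the fibrils, and matrix metalloproteinases cut them. In mammary tumors such matrix lies in the stroma around epithelial nests, beside vessels, macrophages and the fat of the gland. These are whole-tumor RNA measurements, in which fewer cells of a type and less RNA per cell cannot be told apart.

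The score was 10.89 in the lowest collagen-rich tumor, 11.21 at their median and 13.27 in the highest. It was 8.08 in the lowest collagen-poor tumor, 9.44 at their median and 9.86 in the highest. Across the whole ranking the rise was gradual. The last collagen-rich tumor (298T3) had 10.89 and the first middle tumor (P10T1) 10.85, whereas the last middle tumor (P01T1) and the first collagen-poor tumor (P07T1) both had 9.86. Col1a1 ranged from 10.64 to 13.49 in collagen-rich and from 8.21 to 10.09 in collagen-poor tumors. Col1a2 ranged from 10.87 to 13.47 and from 8.05 to 10.13, and Col3a1 from 10.16 to 12.96 and from 7.96 to 9.74. Over the 188 tumors the correlation (Pearson) between pairs of the 3 genes was 0.986 for Col1a1 and Col1a2, 0.924 for Col1a1 and Col3a1 and 0.935 for Col1a2 and Col3a1. The points share their arrays. The left-out tumors had scores of 7.89 to 12.62 and the normal glands of 10.82 to 12.24, on arrays with a narrower range of values, so their levels were not set against those of the ranked tumors.

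**Figure D1:**
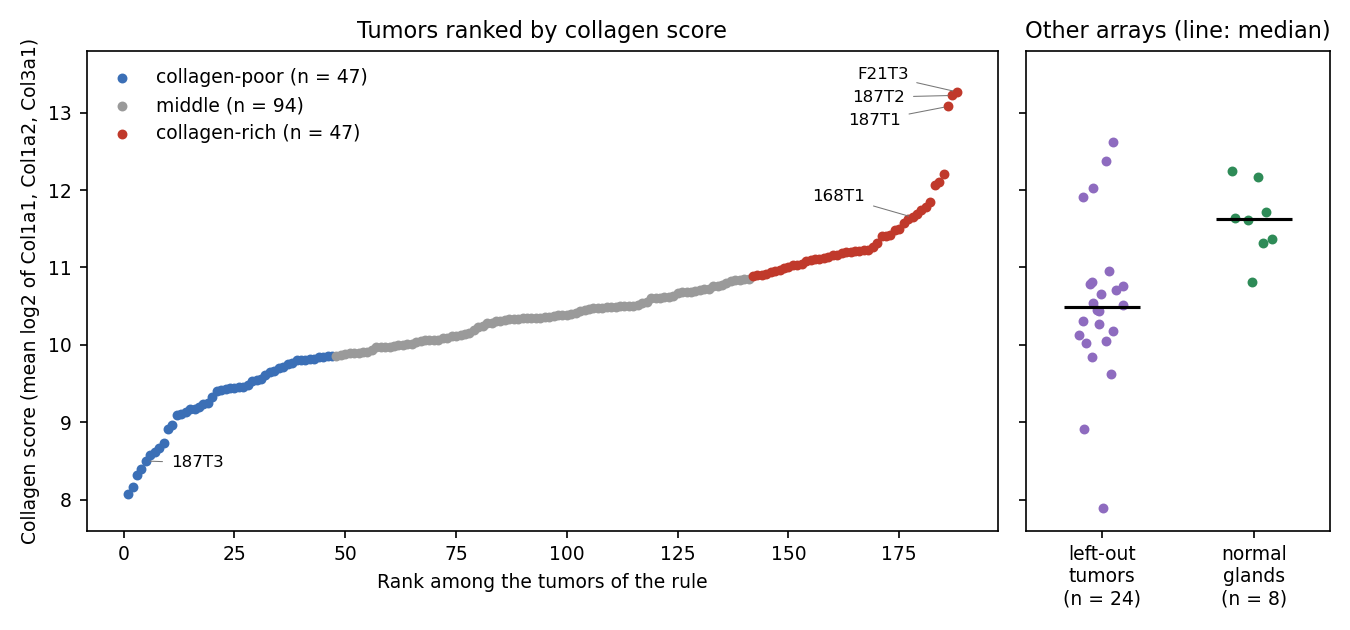
Collagen score (y axis, mean log2 signal of Col1a1, Col1a2 and Col3a1) of each tumor of the rule against its rank (x axis, left), and of the left-out tumors and normal glands (right), with 1 point per array. The score rises without a gap at either limit of the middle tumors, and F21T3, 187T2 and 187T1 stand above 13 at the upper end.

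Some tumors stood apart. F21T3, 187T2 and 187T1 had the highest scores, at 13.27, 13.22 and 13.08, and the next tumor had 12.20. Tumor 168T1, in the collagen-rich group with a score of 11.65, went against its label in 2 defining genes. Its Erbb2 was 9.33, whereas the other 187 tumors ranged from 11.73 to 12.86, and its Epcam, an epithelial adhesion gene, was 6.49 against 11.84 to 12.61. Its Cdh1, encoding E-cadherin, was 6.80 against 9.71 to 11.22, while Krt8 and Krt18, the simple epithelial keratins, lay within the range of the others at 12.88 and 12.66. Counts were therefore repeated without 168T1, and without the 3 highest tumors.

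The collagen-rich tumors comprised 33 F1BX, 9 F1 and 5 FVB tumors, and the collagen-poor tumors 35 F1BX, 3 F1 and 9 FVB tumors. Thus 40.9% of F1, 23.6% of F1BX and 19.2% of FVB tumors were collagen-rich. The collagen-rich tumor 051T1, labelled F1, and the collagen-poor tumor 063T1, labelled FVB, have names of the F1BX form, and without them the shares were 38.1% in F1 and 20% in FVB tumors. With 1 mean score per mouse, the score was 10.50 ± 0.70 (SD, n = 16 mice) in F1, 10.35 ± 0.77 (SD, n = 93) in F1BX and 10.12 ± 0.57 (SD, n = 22) in FVB mice. None of the 3 pairs of backgrounds passed a two-sided permutation test after Benjamini-Hochberg adjustment. The widest difference was F1 minus FVB, at 0.38 (p = 0.0743, adjusted p = 0.223 by the permutation test), and it was 0.29 without 051T1 and 063T1 (adjusted p = 0.421 by the permutation test). With Col1a1 alone it was 0.56 (adjusted p = 0.0412 by the permutation test), and with Col3a1 alone 0.17 (adjusted p = 0.714 by the permutation test). The background was a term in the fits below, except in alternatives without it, among F1BX tumors alone or with mouse as a fixed block.

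Tumors of the same mouse often differed. In 38 mice with at least 2 tumors (95 tumors), the mean absolute difference in score between tumors of a mouse was 0.92, and it was 1.04 when tumors were exchanged between mice of a background. A one-sided permutation test of this difference gave p = 0.0529, and p = 0.0319 among F1BX tumors alone. In 4 mice 1 tumor was collagen-rich and another collagen-poor. The widest spread was in mouse 187, whose 3 tumors ranged from 8.50 to 13.22, followed by mouse P21 with 8.67 and 11.57.

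**Figure D2:**
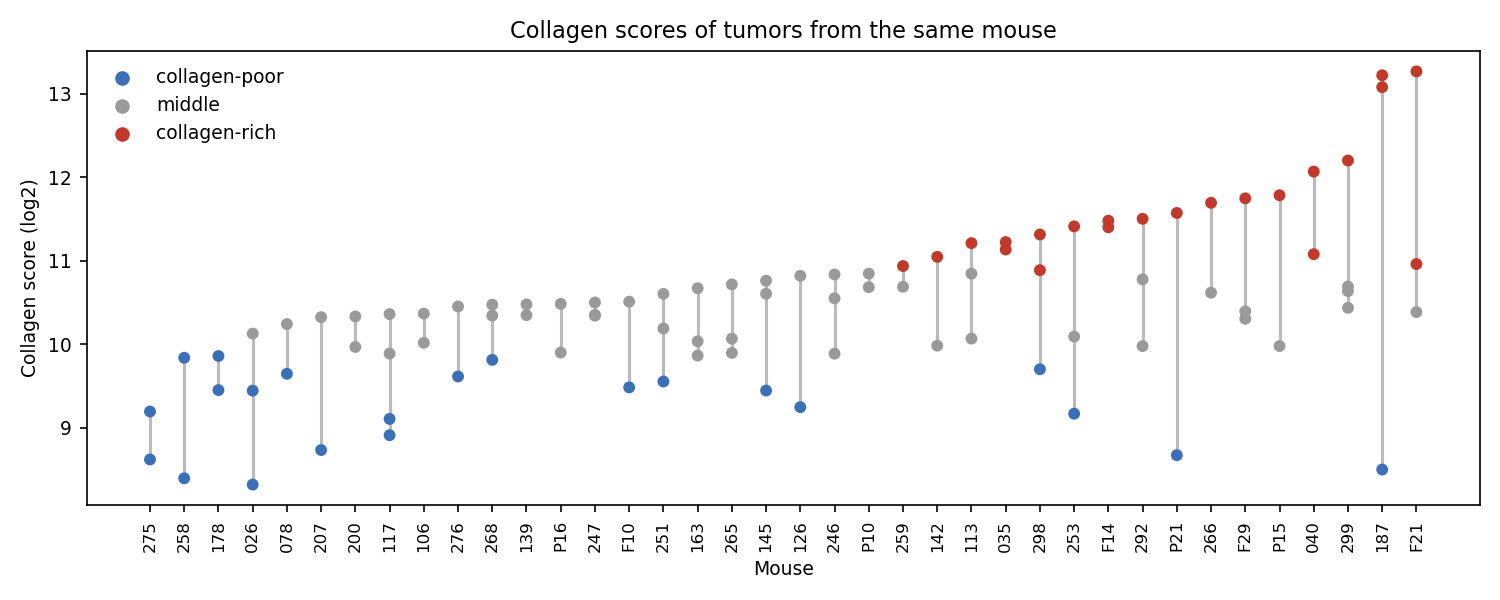
Collagen score (y axis, log2) of the tumors of each mouse with at least 2 tumors of the rule (x axis, mouse number), with 1 point per tumor coloured by group and a line from the lowest to the highest tumor of the mouse. Mouse 187 held tumors at both ends of the ranking, from 8.50 to 13.22.

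Collagen-rich and collagen-poor tumors were compared with limma, with mouse as a random block and background as a term. At an adjusted p not above 0.005 together with a change of 2-fold or more, hereafter called, 183 of 35553 probe sets were higher in collagen-rich tumors (0.515%) and 7 were lower (0.0197%). The adjusted p alone, under 0.05 and hereafter passed the test, was met by 2768 probe sets as higher (7.79%) and 3461 as lower (9.73%). Over 19935 genes, each read from 1 probe set, the shares called were 0.838% higher and 0.0201% lower, those that passed were 10.9% higher and 11.7% lower, and the median difference was -0.02. These shares are the background for the counts below. Of the probe sets called as higher, 176 remained called without 168T1, and 78.7% without F21T3, 187T1 and 187T2. Direction was also read within each background without a test. All 183 were higher in collagen-rich tumors among FVB and among F1BX tumors, and 182 among F1 tumors, of which only 3 were collagen-poor, against 45.2%, 41.2% and 50.5% of all probe sets. Of the 7 called as lower, all 7 were lower among FVB and among F1BX tumors and 5 among F1 tumors. The probe sets were chosen in these same tumors, so these counts are a description. In the 4 mice with tumors of both groups (6 collagen-rich and 4 collagen-poor), with mouse as a fixed block in limma, an alternative chosen after seeing the data, no probe set passed in either direction and 4035 had an unadjusted p under 0.05.

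The other fibrillar collagens rose in part. Of 8 tested, 4 passed as higher and none as lower, with a median difference of 0.27. Col5a2, which encodes a chain of the type V collagen found within type I fibrils, had 8.06, 8.53 and 10.82 as lowest, median and highest level in collagen-rich tumors, and 6.51, 7.36 and 7.87 in collagen-poor tumors. The groups did not overlap, and the difference was 1.35 ± 0.10 (SE, adjusted p = 9.15e-21 from limma). Its partner Col5a1 did not overlap either, with 8.04 to 10.49 against 7.32 to 7.90 and a difference of 0.87 ± 0.08 (SE). Only 5 probe sets of 35553 (0.0141%) had every collagen-rich tumor above every collagen-poor tumor, those of Col5a1, Col5a2, Fn1, Lox and Rcn3, and none had the opposite. Rcn3, named only for this non-overlap after its values were seen, encodes a calcium-binding protein of the endoplasmic reticulum and rose by 1.62 ± 0.11 (SE). The members of the list that did not pass were Col11a1, Col11a2, Col24a1 and Col27a1.

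The promoter of Col1a2 is shown because this gene forms part of the score, and that of Postn because periostin was among the genes with the largest differences. Both are from RefSeq, build GRCm38.p6, written 5′ to 3′ on the gene's strand and upstream of the annotated start. Capitals mark the letters CCAAT in Col1a2 (chr6:4505468-4505567, plus strand) and TATAAA in Postn (chr3:54361007-54361106, plus strand, 26 bases before the start).
Col1a2: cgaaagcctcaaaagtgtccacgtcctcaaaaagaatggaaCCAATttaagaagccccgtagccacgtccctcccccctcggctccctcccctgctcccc
Postn: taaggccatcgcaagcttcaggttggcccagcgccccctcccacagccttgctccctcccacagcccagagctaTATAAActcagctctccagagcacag
CCAAT, read on both strands, occurred in the 250 bases before the start in 33.8% of all 32851 promoters of the table. It occurred in 28% of the promoters of genes called as higher, which the table held for 120 of 167 such genes. TATAAA occurred in 12.4% of all promoters and in 20.3% of those of genes called as higher. These are matches of letters only.

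Collagens of other classes followed in a subset. Of 9 fibril-associated collagens, 3 passed as higher, led by Col12a1, which rose by 1.84 ± 0.14 (SE, adjusted p = 7.79e-19 from limma), and Col14a1, which rose by 1.54 ± 0.16. Of 10 network and transmembrane collagens, 7 passed as higher. Among them were Col8a1 (1.59 ± 0.12) and the 3 chains of type VI collagen, which forms beaded filaments near cells. Col6a1, Col6a2 and Col6a3 rose by 1.15 ± 0.09, 1.10 ± 0.09 and 1.26 ± 0.12 (SE each). Col6a2 was above every collagen-poor tumor in 45 of 47 collagen-rich tumors. Of 21 basement membrane genes, 12 passed as higher and none as lower, with a median of 0.32. The differences were 0.57 ± 0.08 for Col4a1 and 0.52 ± 0.08 for Col4a2, the main type IV chains, and 1.07 ± 0.10 for Nid1, which links laminin to type IV collagen.

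Matrix proteoglycans and glycoproteins had a median of 1.19, the highest of the lists in the plot of gene lists. Of 26 tested, 23 passed as higher and none as lower, and 16 were called. Again 23 passed without 168T1. Fn1, encoding fibronectin, had 10.79, 11.53 and 13.36 as lowest, median and highest level in collagen-rich tumors and 7.69, 9.70 and 10.46 in collagen-poor tumors. It rose by 2.19 ± 0.14 (SE, adjusted p = 4.91e-23 from limma), a 4.55-fold difference. Dcn, encoding the proteoglycan decorin, which binds collagen fibrils, had 9.09, 10.72 and 12.85 against 5.36, 8.21 and 10.63. Its groups overlapped, with 27 of 47 collagen-rich tumors above every collagen-poor tumor, and its difference was the largest of all called genes at 2.66 ± 0.23 (SE, 6.31-fold). Lum, encoding lumican of the same proteoglycan family, had 6.89, 8.55 and 10.91 against 4.33, 5.93 and 8.02, with a difference of 2.58 ± 0.20. Postn, encoding the matrix protein periostin, had 10.19, 11.05 and 12.98 against 6.95, 9.18 and 10.47, and 42 collagen-rich tumors lay above every collagen-poor tumor. Bgn (1.65 ± 0.12), Sparc (1.14 ± 0.08), Thbs2 (1.67 ± 0.17) and Tnc (1.59 ± 0.19) also rose. Comp (-0.19 ± 0.26), Omd (0.07 ± 0.04) and Thbs1 (0.30 ± 0.13) did not pass.

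**Figure D3:**
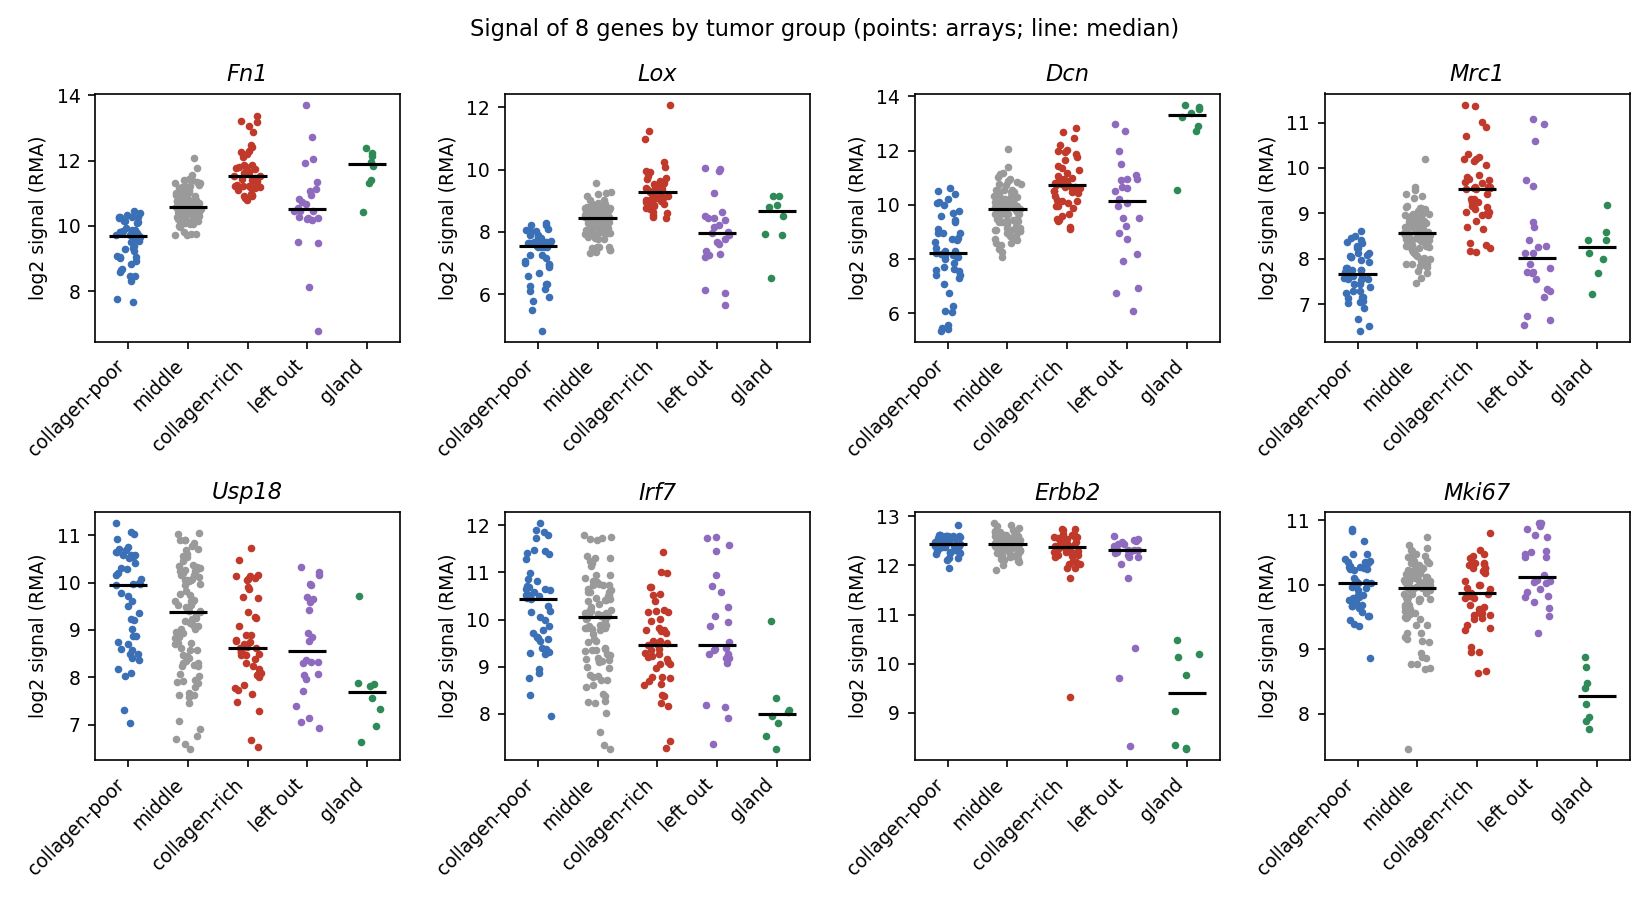
Log2 signal (y axis) of 8 genes in collagen-poor, middle and collagen-rich tumors, left-out tumors and normal glands (x axis), with 1 point per array and a line at the median. Fn1 and Lox do not overlap between collagen-rich and collagen-poor tumors, Usp18 and Irf7 are lower in collagen-rich tumors with wide overlap, and the low Erbb2 point of the collagen-rich group is 168T1 at 9.33.

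Most of the enzymes and chaperones that process collagen rose. Of 23 tested, 16 passed as higher and none as lower, with a median of 0.37. Lox, encoding the lysyl oxidase that crosslinks collagen, had 8.46, 9.29 and 12.08 as lowest, median and highest level in collagen-rich tumors and 4.84, 7.54 and 8.29 in collagen-poor tumors. The groups did not overlap, and the difference was 2.09 ± 0.16 (SE, adjusted p = 4.18e-20 from limma). Loxl1 rose by 1.39 ± 0.10 and Pcolce, which enhances the removal of the collagen C-propeptide, by 1.42 ± 0.12. Bmp1, the protease that removes it, rose by 0.83 ± 0.13. Of the prolyl hydroxylases, P4ha3 rose by 0.83 ± 0.09 and P4ha2 by 0.85 ± 0.14. Serpinh1, the collagen chaperone, rose by 0.23 ± 0.06 (SE, adjusted p = 0.00694 from limma), and Plod2, a lysyl hydroxylase, by 0.53 ± 0.19 (adjusted p = 0.0359 from limma). Among F1BX tumors alone Plod2 did not pass (adjusted p = 0.201 from limma). P4hb, Plod1, Plod3, Ppib, Adamts3, Colgalt1 and Mia3 did not pass.

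Genes of matrix degradation rose as well. Of 21 proteases and inhibitors tested, 20 passed as higher and none as lower, with a median of 0.86. Mmp3, a metalloproteinase of broad specificity, had 6.53, 8.05 and 11.63 in collagen-rich tumors against 5.06, 6.09 and 7.35, and rose by 2.15 ± 0.17 (SE). Mmp2, a gelatinase, rose by 1.63 ± 0.12, and Mmp14, which activates it at the cell surface, by 1.29 ± 0.15. Ctsk, encoding the collagen-cutting cathepsin K, rose by 1.37 ± 0.13, and the inhibitor Timp1 by 1.33 ± 0.14. Mmp16 did not pass (-0.41 ± 0.19). Among 9 collagen receptors 6 passed as higher and 1 as lower. Ddr2, a receptor tyrosine kinase for fibrillar collagen typical of mesenchymal cells, rose by 1.11 ± 0.14, Itga11, an integrin chain of fibroblasts, by 0.97 ± 0.11, and Mrc2, which takes up collagen fragments, by 1.03 ± 0.10. Ddr1, the related receptor of epithelial cells, was the member that fell, with -0.20 ± 0.06 (SE, adjusted p = 0.0140 from limma). It did not pass among F1BX tumors alone (adjusted p = 0.0717 from limma) or with 1 tumor per mouse (adjusted p = 0.0586 from limma).

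Fibroblast genes rose almost throughout. Of 14 markers, 13 passed as higher and none as lower, with a median of 0.80, and 13 passed without 168T1. Dpt, encoding dermatopontin, had 6.72, 9.46 and 12.31 as lowest, median and highest level against 5.20, 6.93 and 9.42, and rose by 2.55 ± 0.24 (SE). Pdgfra, a growth factor receptor of fibroblasts, rose by 1.33 ± 0.12 and Prrx1, a mesenchymal transcription factor, by 1.34 ± 0.12. Fap rose by 0.70 ± 0.10 and Vim by 1.002 ± 0.118. Tcf21 did not pass (0.02 ± 0.04). Sfrp2, a secreted Wnt modulator, rose by 2.17 ± 0.16, Efemp1 and Mfap5, proteins of elastic fibres and microfibrils, by 2.05 ± 0.20 and 2.02 ± 0.16, and Svep1, a large extracellular adhesion protein, by 1.95 ± 0.15. Il33, a cytokine of stromal and epithelial cells, was chosen after its values were seen and rose by 1.91 ± 0.14. Of 11 pericyte and smooth muscle genes, 8 passed as higher, among them Acta2 (1.17 ± 0.14), Tagln (1.16 ± 0.12) and Rgs5 (0.49 ± 0.09). Of 20 TGF-beta pathway genes, 10 passed as higher and none as lower. Ccn2 and Tgfbi, matrix-associated targets of the pathway, rose by 1.12 ± 0.14 and 0.70 ± 0.13, and Inhba by 0.76 ± 0.13. The ligand Tgfb1 rose by 0.28 ± 0.10 (SE, adjusted p = 0.0410 from limma), and did not pass without 168T1 (adjusted p = 0.0648 from limma). Without 168T1, 8 of the 20 passed as higher.

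Of the other cell types, macrophage and endothelial genes rose. Among 12 macrophage markers, 11 passed as higher and none as lower, with a median of 0.56. Csf1r, the growth factor receptor of macrophages, rose by 0.65 ± 0.09. Mrc1, the mannose receptor, rose by 1.91 ± 0.14 (SE, adjusted p = 9.15e-21 from limma), from 7.67 at the collagen-poor median to 9.54 at the collagen-rich median. In 42 of 47 collagen-rich tumors Mrc1 exceeded every collagen-poor tumor. F13a1, encoding a transglutaminase subunit found in tissue macrophages, had 7.74, 9.79 and 11.73 as lowest, median and highest level against 6.04, 7.58 and 8.99, and rose by 2.28 ± 0.17. A list of 12 genes of resident macrophages was written after the values were seen, so its count is a description only. All 12 passed as higher, with a median of 1.70, including Cd163 (1.47 ± 0.14), Cd209f (1.82 ± 0.18), Clec10a (1.73 ± 0.16) and Ccl8 (1.67 ± 0.16). Among endothelial markers 11 of 12 passed as higher with a median of 0.36, such as Pecam1 (0.51 ± 0.09) and Tek (0.82 ± 0.13). Of 6 mast cell genes, 5 passed as higher, led by Cpa3 (0.95 ± 0.14). Of 8 neutrophil genes, 3 passed as higher and none as lower, with a median of 0.13. In contrast, 1 of 8 T cell genes (Cd2) and 1 of 8 B and plasma cell genes (Sdc1) passed, both as higher, beside 10.9% of all genes.

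Most adipocyte genes and a minority of skeletal muscle genes were higher in collagen-rich tumors. Of 9 adipocyte genes, 8 passed as higher, with a median of 0.62, and their mean level ranged from 6.30 to 10.24 in collagen-rich and from 6.26 to 7.83 in collagen-poor tumors. Of 8 skeletal muscle genes, 3 passed as higher, with a median of 0.71, and their mean level ranged from 6.01 to 12.15 and from 6.05 to 8.27. The medians of these mean levels were close, at 6.88 and 6.64 for adipocyte and 6.38 and 6.31 for muscle genes, so the upper end was reached by a minority of tumors. Adipoq, encoding adiponectin, exceeded every collagen-poor tumor in 8 of 47 collagen-rich tumors, and so did Acta1, encoding skeletal actin. With 1 tumor per mouse, none of the muscle genes passed, and no gene of either list passed in the left-out or the middle tumors. With both mean levels as terms of the fit, an alternative chosen after seeing the data, 69.4% of the 183 probe sets were still called as higher. The matrix proteoglycan and glycoprotein median was 1.06 in that fit, the fibroblast median 0.70 and the resident macrophage median 1.23.

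**Figure D4:**
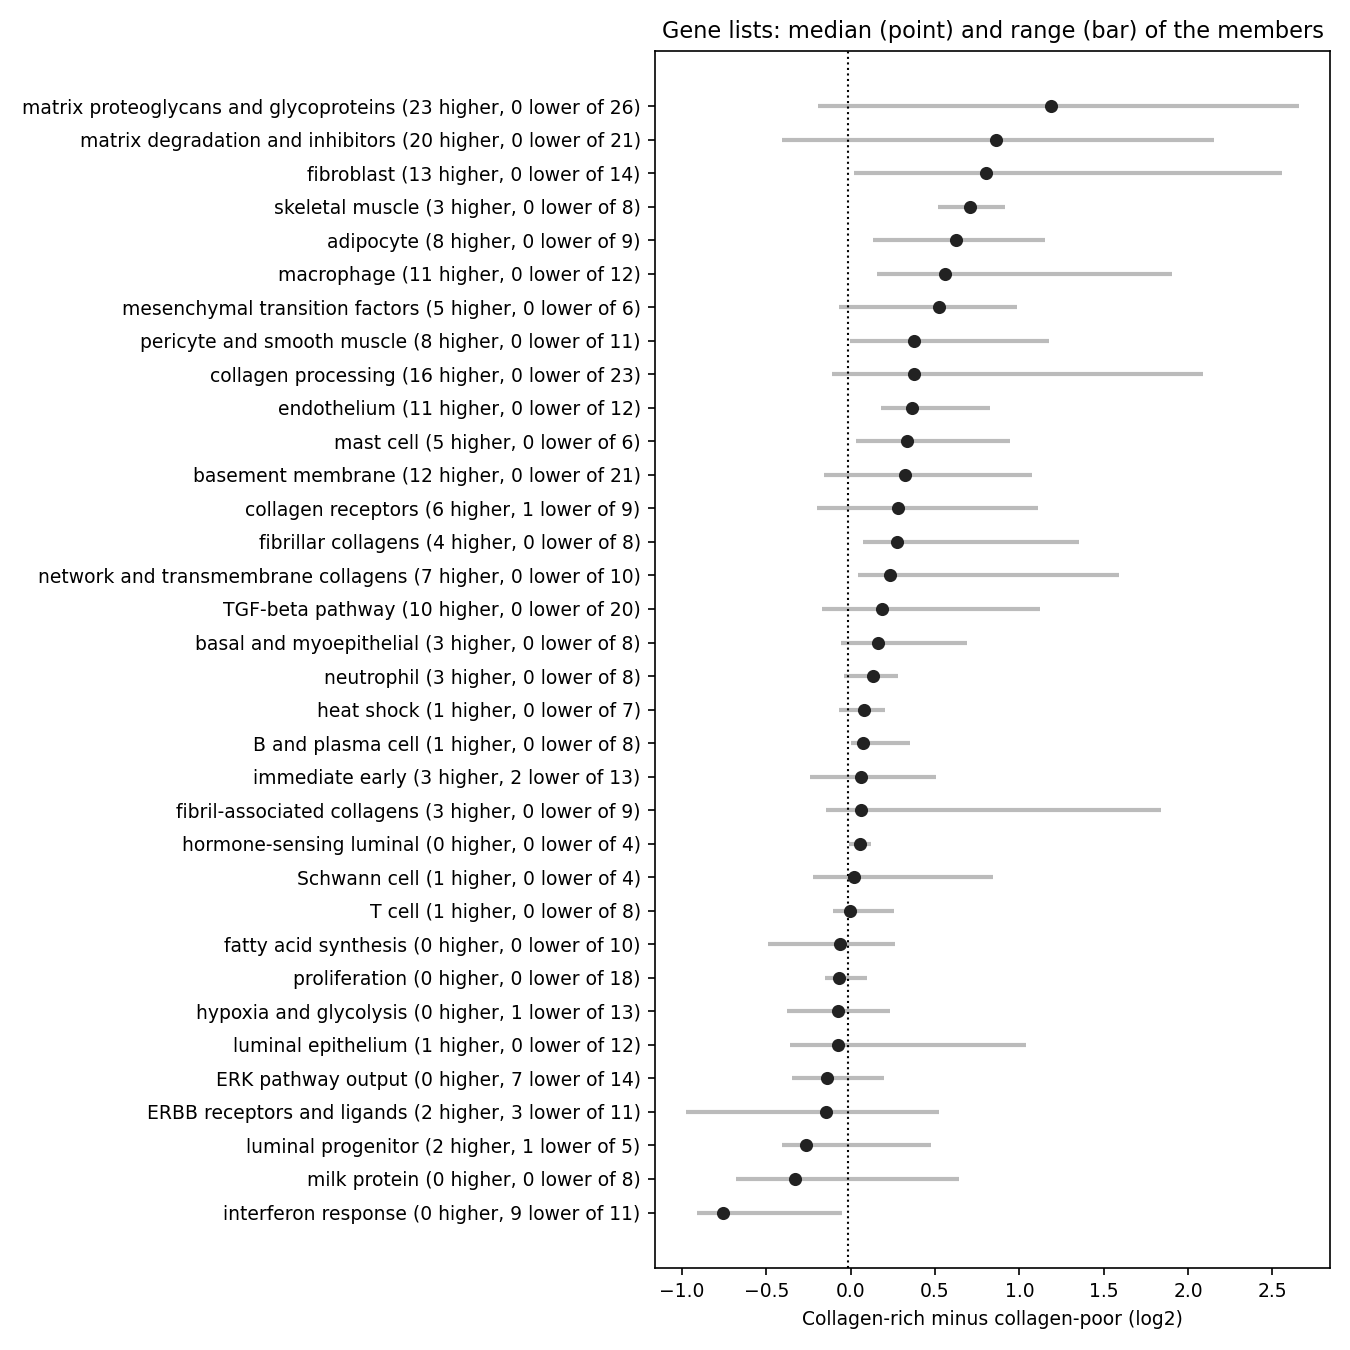
Difference between collagen-rich and collagen-poor tumors (x axis, log2) for each gene list (y axis, with the number of members that passed as higher and as lower of those tested), as the median (point) and the range (bar) of the members. The dotted line marks the median of all genes at -0.02. Among the lists shown, matrix proteoglycans and glycoproteins have the highest median at 1.19 and the interferon response the lowest at -0.76. Lists written after the values were seen are not shown.

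Few genes of the luminal epithelial and milk protein lists passed the test, and secretory genes are described below. Of 12 luminal epithelial genes, 1 passed as higher, Krt19 (1.04 ± 0.21), and none as lower. Erbb2 had 9.33, 12.37 and 12.74 as lowest, median and highest level in collagen-rich tumors and 11.95, 12.43 and 12.81 in collagen-poor tumors. The difference was -0.13 ± 0.08 (SE, adjusted p = 0.262 from limma), and -0.06 without 168T1. As a slope over all 188 tumors, scaled to the distance between the group means, it was -0.17 and passed (adjusted p = 0.00672 from limma). That slope included 168T1 and was not repeated without this tumor. Between the groups, Epcam likewise did not pass (-0.20 ± 0.13, adjusted p = 0.299 from limma). Esrp1, an epithelial splicing factor, gave -0.36 ± 0.14 (adjusted p = 0.0618 from limma) in all tumors and -0.23 without 168T1, where it passed (adjusted p = 0.0162 from limma). None of 8 milk protein genes and none of 18 proliferation genes passed in either direction, and Mki67 gave -0.15 ± 0.10. Of 13 hypoxia and glycolysis genes, 1 (Ldha) passed as lower, and of 10 fatty acid synthesis genes none passed.

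Among 6 transcription factors and markers of mesenchymal transition, 5 passed as higher, and 5 did so without 168T1. Zeb1 and Zeb2, repressors of epithelial genes, rose by 0.69 ± 0.10 and 0.99 ± 0.11 (SE), and Snai2 by 0.69 ± 0.09. Zeb1 was 10.37 in 168T1, above the 7.09 to 9.80 of the other 187 tumors. The microRNAs of the miR-200 family are known to repress Zeb1 and Zeb2, and miR-29 is known to repress collagen mRNAs. The arrays carry probe sets on the precursor genes of microRNAs, and mature microRNA was not measured. Of 291 microRNA genes, 28 passed as higher and 15 as lower, and the largest difference was 0.60. Neither count exceeded the share over all genes, 10.9% as higher and 11.7% as lower. A list of miR-200 and miR-29 genes was written after the values were seen, and 3 of its 6 tested members passed as lower. Mature sequences of those described here, from RefSeq on GRCm38.p6, are shown to set the related seeds beside each other, with the seed (bases 2 to 8) in capitals.
mmu-miR-200a-3p: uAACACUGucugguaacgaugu
mmu-miR-200b-3p: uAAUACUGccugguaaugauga
mmu-miR-29b-3p: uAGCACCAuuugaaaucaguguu
mmu-miR-140-3p: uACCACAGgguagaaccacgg
mmu-miR-382-5p: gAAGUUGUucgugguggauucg
None of these 5 shared a seed. The precursor gene Mir200a had 5.88, 7.97 and 9.002 as lowest, median and highest level in collagen-rich and 7.40, 8.32 and 8.94 in collagen-poor tumors. The mature miR-200a-3p lies within it at chr4:156054911-156054932 on the minus strand. Mir200a fell by 0.32 on the log2 scale (SE 0.10, adjusted p = 0.0126 from limma). Mir200b (mature miR-200b-3p at chr4:156055685-156055706, minus strand) fell by 0.42 (SE 0.13, adjusted p = 0.0159 from limma), with 4.95, 7.82 and 8.99 against 6.78, 8.21 and 8.98. The groups overlapped for both, and neither passed with 1 tumor per mouse (adjusted p = 0.0765 and 0.0775 from limma). Mir200c (-0.10 ± 0.09), Mir141 (-0.19 ± 0.10) and Mir29a (-0.09) did not pass. Mir29b-1 gave -0.17 ± 0.06 (adjusted p = 0.0273 from limma) at low levels of 3.14 to 4.07 against 3.10 to 4.76, and did not pass with 1 tumor per mouse (adjusted p = 0.193 from limma). Mir140 and Mir382 were chosen after their values were seen. Mir140 rose by 0.60 ± 0.15, with 5.35, 6.41 and 8.82 against 5.16, 5.88 and 7.25, and did not pass among F1BX tumors alone (adjusted p = 0.0529 from limma). Mir382 rose by 0.55 ± 0.08, with 3.95, 4.66 and 6.55 against 3.65, 4.19 and 4.84.

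Interferon response genes were lower in collagen-rich tumors. Of 11 tested, 9 passed as lower and none as higher, with a median of -0.76, and none reached the 2-fold limit. Leaving out 168T1 also gave 9, and leaving out the 3 highest tumors gave 10. Usp18, which restrains interferon signaling, had 6.53, 8.63 and 10.74 as lowest, median and highest level in collagen-rich tumors and 7.03, 9.95 and 11.25 in collagen-poor tumors. The groups overlapped widely, and 39 of 47 collagen-rich tumors lay below the collagen-poor median. It fell by 0.91 on the log2 scale (SE 0.21, adjusted p = 8.65e-04 from limma). Irf7, the transcription factor that amplifies the response, had 7.26, 9.46 and 11.45 against 7.96, 10.44 and 12.05, and fell by 0.87 (SE 0.20). Ifit1, Ifit3 and Rsad2, antiviral effectors, fell by 0.84, 0.86 and 0.76. Irf1 (-0.05 ± 0.06) and Ifit2 (-0.34 ± 0.14) did not pass. With the groups narrowed to 1 in 10 tumors at each end, Irf7 gave -1.002 (adjusted p = 0.0559 from limma) and Rsad2 -0.82 (adjusted p = 0.108 from limma). Among F1BX tumors alone 8 of the 11 passed, and Ifit3 did not (adjusted p = 0.0544 from limma).

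Stretches of 3 of these promoters are shown because they hold the response element through which the interferon-activated factor complex binds. The letters searched were GAAA and a second GAAA with NN (any bases) between them, or the reverse complement with TTTC, in capitals here, on RefSeq build GRCm38.p6, upstream of the start and 5′ to 3′ on the gene's strand. The stretches are chr19:34640739-34640838 (plus strand) for Ifit1, chr19:34583349-34583448 (plus strand) for Ifit3 and chr12:26456533-26456632 (minus strand) for Rsad2.
Ifit1: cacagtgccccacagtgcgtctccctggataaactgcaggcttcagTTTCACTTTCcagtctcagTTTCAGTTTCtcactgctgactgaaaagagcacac
Ifit3: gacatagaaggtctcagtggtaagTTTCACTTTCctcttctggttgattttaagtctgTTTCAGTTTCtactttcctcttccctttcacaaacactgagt
Rsad2: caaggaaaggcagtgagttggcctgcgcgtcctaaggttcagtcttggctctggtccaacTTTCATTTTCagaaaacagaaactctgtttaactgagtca
Ifit1 and Ifit3 held 2 matches each and Rsad2 held 1. In the 250 bases before the start, the element occurred in 2.98% of all 32851 promoters. The table held 10 promoters for 8 of the interferon list genes. In 4 of these promoters (40%) the element occurred, those of Ifit1, Ifit3, Oas1a and Rsad2. Among promoters of genes called as higher it occurred in 3.5%. The match says only that these letters are present.

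Genes of class I antigen presentation, a list written after the values were seen, moved the same way in part. Of 9 tested, 5 passed as lower and none as higher, and 2 among F1BX tumors alone. Tap1, a subunit of the peptide transporter, had 7.69, 9.40 and 10.87 as lowest, median and highest level against 8.85, 10.18 and 11.66, and fell by 0.70 (SE 0.14). Psmb8 and Psmb9, subunits of the immunoproteasome, fell by 0.51 and 0.60, and B2m, the light chain of class I molecules, by 0.26.

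Over genes read from 1 probe set, those called as lower were Scgb1b27, Prol1, Odam and Slc10a5. Scgb1b27, a secretoglobin of glandular secretions, had 6.89, 7.91 and 13.22 as lowest, median and highest level in collagen-rich tumors and 6.81, 10.38 and 13.66 in collagen-poor tumors. Both groups covered nearly the whole range, and 42 of 47 collagen-rich tumors lay below the collagen-poor median. It fell by 1.90 (SE 0.41, adjusted p = 3.30e-04 from limma). Prol1, encoding a proline-rich secreted protein, fell by 1.37 (SE 0.35), Odam, encoding a secreted odontogenic protein, by 1.36 (SE 0.29), and Slc10a5, of the bile acid transporter family, by 1.17 (SE 0.25). With 1 in 10 tumors at each end, Prol1 gave -1.44 and did not pass (adjusted p = 0.0981 from limma). Among F1BX tumors alone Prol1 and Slc10a5 passed but were not called (adjusted p = 0.00579 and 0.0053 from limma). Bhlha15, a transcription factor of secretory cells, was chosen after its values were seen. It had 5.48, 9.39 and 10.19 against 8.74, 10.04 and 10.78, and fell by 0.69 (SE 0.13). A list of 10 secretory genes, among them Scgb1b27, Prol1, Odam and Bhlha15, was written after the values were seen. Its count is thus a description only. All 10 passed as lower, beside 11.7% of all genes, with a median of -0.94. Without 168T1 again 10 passed as lower, and among F1BX tumors alone 8 did. Elf5, a transcription factor of luminal progenitors, fell by 0.40 (SE 0.13, adjusted p = 0.0177 from limma) and did not pass among F1BX tumors alone (adjusted p = 0.0648 from limma).

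Genes of the ERBB system moved in both directions. Of 11 receptors and ligands, 2 passed as higher (Ereg and Hbegf) and 3 as lower. Egf, a ligand, had 6.69, 8.08 and 10.87 as lowest, median and highest level against 7.17, 9.83 and 11.18, and fell by 0.98 (SE 0.22, adjusted p = 5.37e-04 from limma). Erbb4, a receptor of the family, fell by 0.85 (SE 0.26, adjusted p = 0.0119 from limma), and Btc, another ligand, by 0.22 (SE 0.07). Within F1 tumors the Erbb4 difference was 0.68, on 9 and 3 tumors, and it exceeded that in F1BX tumors by 1.81 without passing (interaction term, adjusted p = 0.999 from limma). Erbb3 did not pass (-0.22 ± 0.12). Of 14 genes of ERK pathway output, 7 passed as lower and none as higher, with a median of -0.14. Dusp6, the phosphatase that ERK induces against itself, fell by 0.29 (SE 0.08, adjusted p = 0.00333 from limma), and Ccnd1, encoding cyclin D1, by 0.24 (SE 0.08, adjusted p = 0.0351 from limma). Among F1BX tumors alone 3 of the 14 passed as lower, and without F21T3, 187T1 and 187T2 4 did.

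Of the lists not yet described, the luminal progenitor list (5 tested) had 2 higher (Aldh1a3 and Lif) and 1 lower (Elf5). Without 168T1 it had 1 higher and 2 lower, and among F1BX tumors none passed. Of the basal and myoepithelial list (8 tested), Krt5, Krt14 and Mylk were higher. Of 4 Schwann cell genes only Pmp22 passed, as higher. Of 4 hormone-sensing luminal genes none passed. Of 13 immediate early genes 3 passed as higher and 2 as lower, and of 7 heat shock genes 1 (Hspa8, by 0.08 ± 0.02) passed as higher.

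The left-out tumors gave values that the choice of the groups did not use. Among the 24 left-out tumors, whose mouse names were none of those of the ranked tumors, each probe set was fitted by limma on the collagen score. At an adjusted p under 0.05, 923 probe sets had a positive slope (2.60%) and 408 a negative one (1.15%). Without 092T1, F1_26T1 and 076T1, which had low Erbb2, these counts were 583 and 186. Left-out F1_27T1 and F1_6T1 carry the numbers of the ranked tumors F27T1 and F06T1, and whether they came from the same mice was not given in the sources used here. Without them the counts were 719 and 344. Of the 183 probe sets called as higher, all 183 had a positive slope in the left-out tumors, where 41.6% of all probe sets had one, and 80.3% passed. Their median slope was 0.64 per unit of score. Of the 7 called as lower, all 7 had a negative slope and none passed. Fn1 had a slope of 1.29 (adjusted p = 1.39e-11 from limma), Bgn of 1.02 and Mrc1 of 1.12 (adjusted p = 8.73e-07 from limma). The interferon response list had a median slope of -0.42, and none of its genes passed. Of the ERK output list, Dusp5 and Phlda1 passed as negative there.

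**Figure D5:**
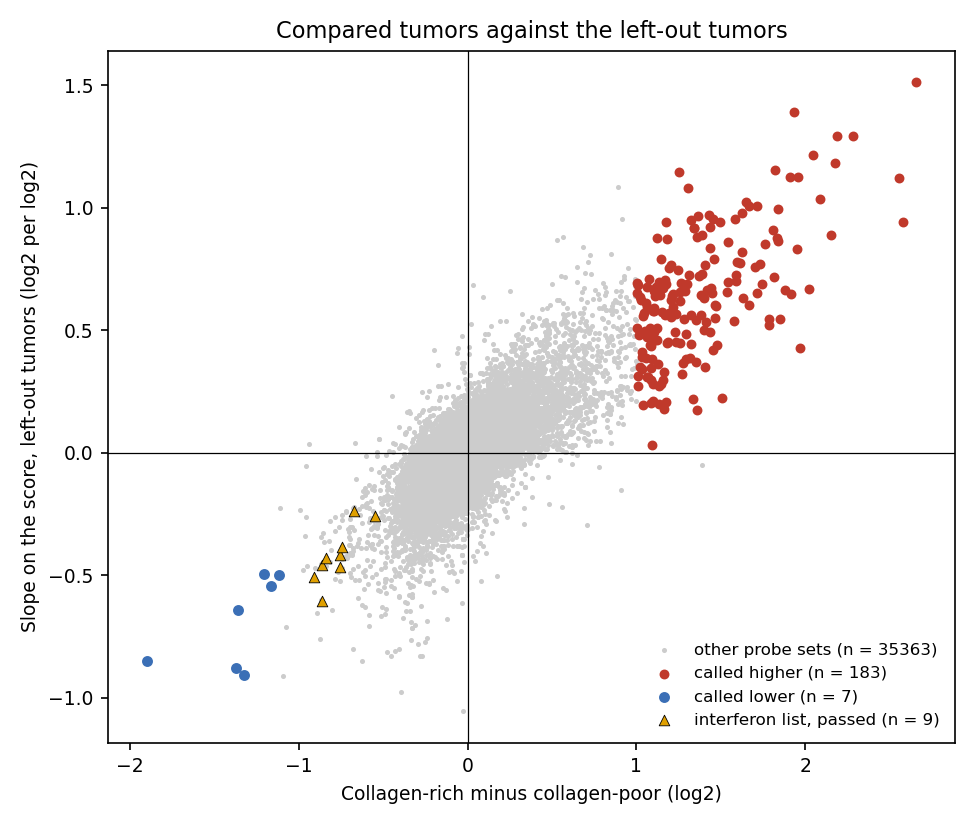
Slope of each probe set on the collagen score in the 24 left-out tumors (y axis, log2 per unit of score) against its difference between collagen-rich and collagen-poor tumors (x axis, log2), with called probe sets and interferon response genes marked. All 183 probe sets called as higher lie above 0 on both axes, and the interferon genes that passed lie below 0 on both.

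Among the 94 middle tumors, whose scores spanned only 9.86 to 10.85, 186 probe sets had a positive slope at an adjusted p under 0.05 (0.523%) and 19 a negative one (0.0534%). All 183 probe sets called as higher had a positive slope, and 96 passed, with a median slope of 0.60. Col5a1 and Col5a2 had adjusted p = 1.23e-12 each from limma, and Bgn had 1.28e-12. Dcn, which had the largest difference between the groups, had a slope of 0.84 and did not pass in the middle tumors (adjusted p = 0.137 from limma). Zeb2 did not pass there either (adjusted p = 0.187 from limma), and no gene of the endothelial, adipocyte and interferon lists did. Some of the middle tumors came from the mice of compared tumors, so these values are not independent of the mice. Their scores were also part of the ranking that set both groups, so these slopes are a description.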

How the data were processed

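The authors hybridized total RNA of each tumor or gland to an Affymetrix mouse gene 1.0 ST array and normalized them by RMA in Expression Console, and the deposited values are log2 signals of 35556 probe sets. Which annotation build they used and whether all arrays were normalized in 1 run were not given in the sources used here. Gene symbols were taken from the platform annotation, in which 21789 probe sets carry 1 symbol, 1621 several and 12146 none. A gene was read from that of its probe sets whose mean over the 188 tumors was highest. Score groups (1 in 4 tumors, rounded down) and backgrounds followed the rule and the labels, and 2 repeat arrays (names ending in R) were not used. limma 3.58.1 (R 4.3.3, statmod 1.5.0) was fitted on all probe sets except the 3 of the score, with background as a term and mouse, read from the tumor name, as a random block (consensus correlation 0.0876, on every 10th probe set), and p-values were adjusted by Benjamini-Hochberg over all 35553. Whether differences depended on background was tested with interaction terms in the same fit. Simulated data were used to check the fit. Permutation tests used 100000 resamples. Named genes were the 12 with the largest called differences in each direction, members of the gene lists, and those said to be chosen after their values were seen. The members and lists were chosen with earlier results of these data known. Alternatives changed 1 choice at a time, and 6 were added after seeing the data (adipocyte and muscle terms, mouse as a fixed block, and without 168T1, F21T3 with 187T1 and 187T2, F1_27T1 with F1_6T1, or 051T1 with 063T1 in the test of the score). Tumors of a label are separate tumors, and p-values do not cover array batches, for which no dates were used here. Promoter and microRNA sequences were from RefSeq tables (GRCm38.p6).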

Additional observations from a re-analysis of the deposited data

Results flagged for a closer look

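P2rx2 and Ccr4 differed between backgrounds in their change with the groups. The collagen-rich minus collagen-poor difference of P2rx2 in F1 tumors less that in F1BX tumors was -1.25 (interaction term, adjusted p = 0.0158 from limma). Its mean was 6.13 in the 9 collagen-rich and 7.40 in the 3 collagen-poor F1 tumors, which had 8.76, 6.98 and 6.46. For Ccr4 the same quantity was -1.01 (adjusted p = 0.0301 from limma), with means of 5.34 and 6.31 and with 7.66, 5.31 and 5.97 in the 3 collagen-poor F1 tumors. Both genes were highest in F10T1 among those 3. Over all 35553 probe sets, 1658 had an unadjusted p under 0.05 between F1 and F1BX tumors. None passed between FVB and F1BX tumors, where 1033 had an unadjusted p under 0.05. Neither count exceeded the share of 0.05 that this threshold gives on average without any difference. The term passed for none of the other genes named in the report.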

How the results depend on the processing

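The count of probe sets called as higher (183) lay within 1.5 times of that value in all alternatives but the pairing by mouse below and 2 others, with 109 for 1 in 3 tumors at each end and 521 for 1 in 10, of which 108 and 180 were among the 183. The count called as lower (7) was small and moved more often. It was 12 without a background term, 11 with 1 tumor per mouse, 14 for 1 in 10 tumors at each end, 21, 16 and 3 with the score from Col1a1, Col1a2 and Col3a1 alone, and 28 with the adipocyte and muscle means as terms, to which the genes of those 2 lists themselves contribute. At the adjusted p alone, the lower count (3461) was 2267 with those terms and 6276 for the slope over all tumors. Slopes in the left-out tumors gave 583 positive and 186 negative probe sets without 092T1, F1_26T1 and 076T1. The F1 minus FVB difference in score passed with Col1a1 alone (0.56), and the similarity of tumors of a mouse passed among F1BX tumors (mean difference 0.85) and with Col1a2 alone (0.92). The causes were not tested. Over the named genes and 19 alternatives, 1 of 1932 values changed sign, that of Plod2 in the fit of 4 mice described below. A further 137 no longer passed, most of them in that fit, and 15 passed only in the alternative. Replicate numbers of the tumors only count accessions and pair nothing. Paired by mouse, in the 4 mice with tumors of both groups and with mouse as a fixed block, 0 probe sets were called or passed as higher and 0 as lower (smallest adjusted p = 0.149 from limma), and 4035 had an unadjusted p under 0.05. In that fit of 10 tumors all 183 probe sets called as higher had a positive difference, with a median of 2.01, as had 36.9% of all probe sets, and Plod2 had -0.26. These 10 tumors were among those in which the 183 probe sets were chosen, so this count is a description. Signal near background limits genes such as Mir29b-1, and the F1 tumors hold only 3 collagen-poor ones.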
